A study of Homo sapiens with 8 samples.

Results

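The genes described here encode the collagens, laminins and other proteins of the extracellular matrix, together with the enzymes that build, cross-link and degrade it. They were taken as the probe sets with 1 gene symbol where that symbol begins with COL, LAMA, LAMB, LAMC, MMP, TIMP, PLOD, LOX or THBS and a digit, or is LOX, SPARC, NID1, HSPG2 or P4HA1. This gave 71 of 8746 probe sets, for 68 of 7713 genes with a probe set of their own. COL8A1, MMP25 and MMP24OS have 2 probe sets each. MMP24OS entered through its symbol only, since it is named for a transcript opposite MMP24 and is not itself a metalloproteinase gene.

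RNA of 2 human breast cancer lines was measured on 8 Affymetrix arrays, 2 per group. The groups were ZR75-1 (ER + in the labels) with an HSD17B14 plasmid, ZR75-1 with the same amount of vector lacking the insert, and the same pair for SKBR3 (ER - in the labels). All cells grew in phenol-red free Optimem-I with 4% foetal bovine serum, received plasmid with FuGene-6 once seeded for 24 h, and were collected after a further 48 h. HSD17B14 is a member of the 17-beta-hydroxysteroid dehydrogenase family, and the vector arrays serve as the control for its introduction. The labels do not say whether the duplicates were separate cultures, and the p-values therefore reflect only how far these arrays scatter, which may be technical.

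Fibrillar collagens such as types I, III and V give connective tissue its strength, whereas type IV collagen, laminins, nidogen and perlecan form the basement membrane on which epithelial cells sit. Collagen chains are hydroxylated in the endoplasmic reticulum by prolyl and lysyl hydroxylases and are cross-linked outside the cell by lysyl oxidase. Matrix metalloproteinases cut these proteins, and the TIMP proteins inhibit the metalloproteinases. In breast tumours much of the fibrillar matrix is made by fibroblasts, and carcinoma cells differ in how much matrix and protease they make themselves.

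The values are MAS5 signals on a linear scale, which can be set against each other between arrays for 1 probe set but not between probe sets. Signals under 17.6 were taken as too low to give a size, this floor being the largest 40th percentile found on any array, and a fold against a group wholly under it is given as a lower bound. HSD17B14 itself read 107.5 and 135.3 with the plasmid against 17.8 and 2.1 without it in ZR75-1, and 650.7 and 743.6 against 2.0 and 4.2 in SKBR3. ERBB2, the HER2 gene that SKBR3 is known to carry amplified, read 25.9 to 46.8 on the SKBR3 arrays and 95.9 to 226 on those of ZR75-1. This goes against the label, so these arrays are called SKBR3-labelled. Of 10 luminal markers 10 lay above the floor on all ZR75-1 arrays and 8 on all SKBR3-labelled arrays, with summed signals of 20414.2 to 22993.5 and 5876 to 7572.6. Of the 7 mesenchymal markers on the array, 5 lay above the floor on every SKBR3-labelled array and 0 on every ZR75-1 array. Their summed signals were 4972 to 6821.9 and 34.1 to 122.1, sums to which the intermediate filament VIM alone gave 3646.2 to 5325.8 and 0.4 to 25.7. TWIST1, a mesenchymal transcription factor, had the opposite order, at 0.3 to 3.6 and 14.1 to 28.2. Fibroblast markers outside the members summed to 121.6 to 158.5 in the SKBR3-labelled cells and 28.1 to 69.7 in ZR75-1. FBN1 was the only 1 of them above the floor on all SKBR3-labelled arrays, and LUM, PDGFRA, PDGFRB and FAP lay under it on all arrays. Endothelial markers summed to 12.2 to 56.3 over all arrays and leukocyte markers to 19.3 to 51.5. In bulk RNA, fewer cells of a type and less RNA per cell cannot be told apart, and the part of these markers in the results below was not tested.

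SKBR3-labelled control 1 stood apart among these genes. It held 39 of the 71 probe sets above the floor, against 22 to 26 on each of the other 7 arrays, and it gave the highest signal of its line for 36 of the 71. Over all probe sets the other arrays had 53.2% to 58.3% above the floor. On SKBR3-labelled control 1 this share was 60% by construction, since the floor was its own 40th percentile. Genes above the floor on that array alone included COL2A1 at 29.6, MMP19 at 21.9 and COL3A1 at 20.6, each under the floor on the other 7 arrays.

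Of the 71 probe sets 22 were under the floor on all 8 arrays, with signals from 0.2 to 17.5, and 12 were above it on all 8. Of the 49 above it on at least 1 array, 15 were so in the SKBR3-labelled cells only, 9 in ZR75-1 only and 25 in both lines. The 15 include LAMA4, COL1A2, COL2A1, COL3A1, MMP12, MMP19 and MMP26, which were above the floor on SKBR3-labelled control 1 alone. The same split was not counted over all probe sets. The filter on low values passed 46 probe sets for testing, and 19 of these had signal above the floor in 1 line only. The filter used each array's own 40th percentile, at or under the floor, so some of the 19 passed with arrays of both lines, such as LAMA4. Where the arrays of only 1 line passed, a difference between the lines was built into the passing. SPARC, a collagen-binding protein typical of fibroblasts, was among those not tested, at 0.4 to 9.7.

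The lines differed at 20 matrix probe sets, each a different gene, averaged over both plasmids with 4 arrays a line. Lower in ZR75-1 were 15, namely 5 collagens, 2 laminin chains, 3 collagen-modifying enzymes, 1 thrombospondin, 2 metalloproteinases and 2 TIMP genes, while COL1A1, COL4A5, THBS3, MMP9 and MMP15 were the 5 higher ones. A difference was called at an adjusted p under 0.05, from limma with Benjamini-Hochberg adjustment over all 6251 tested probe sets. The array-wide share called was 49.2%, with 23% higher and 26.1% lower in ZR75-1. Of the 46 members tested 43.5% were called, 10.9% higher and 32.6% lower. Without the filter the same numbers of members, 15 lower (21.1%) and 5 higher (7.04%), were called of all 71 (28.2%). Beside these, 33.5% of all probe sets were called (15.9% higher and 17.6% lower). The total share of members called thus lay near the background, with the higher share below it and the lower share above it. Without SKBR3-labelled control 1 the count was 19, 14 lower and 5 higher. With the actin 3'/5' ratio, an RNA quality measure of 2.02 to 2.83 in ZR75-1 and 2.28 to 3.6 in the SKBR3-labelled cells, as a covariate it was 15. The arrays of the lines did not overlap at 20 of the 46 tested members, 18 of them called, where 42.5% of all tested probe sets did not overlap, so this too lay near the background. In 11 of the 20 called members the dimmer line lay wholly under the floor.

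**Figure D1:**
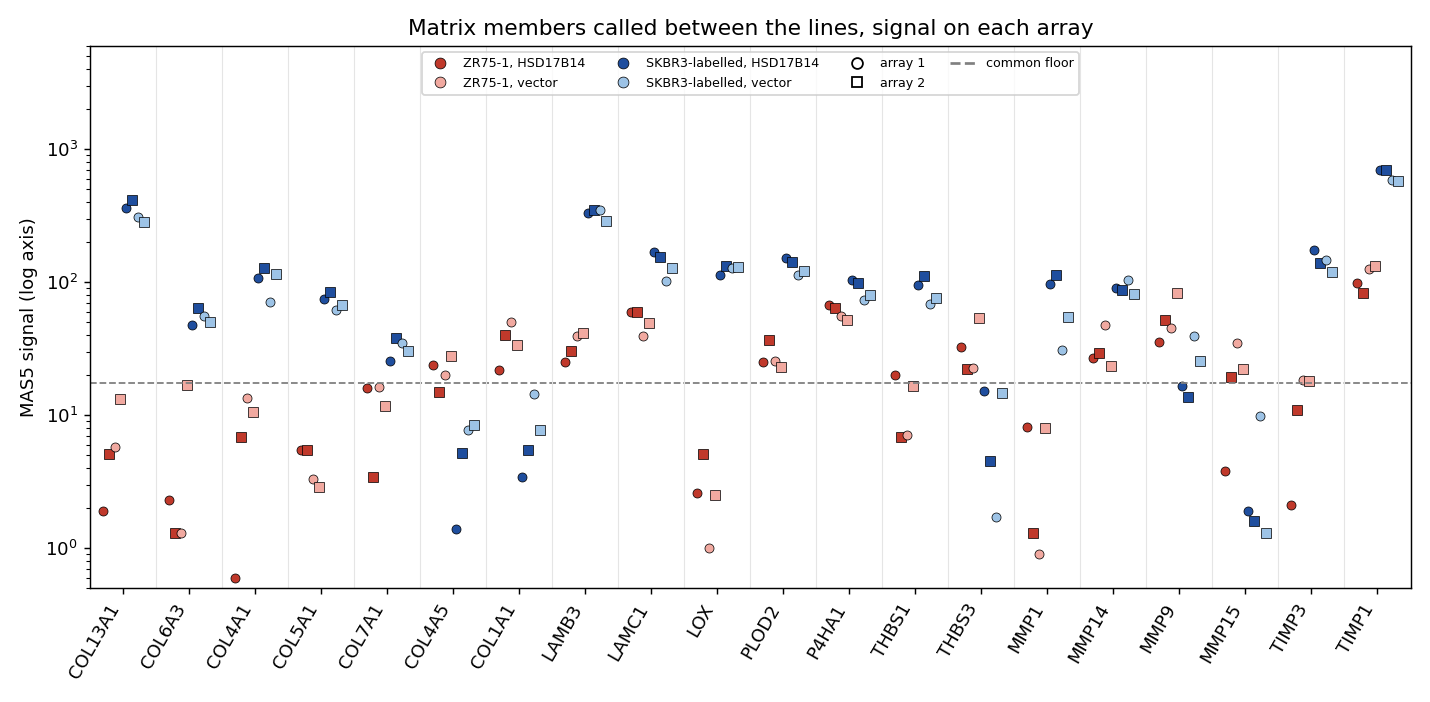
MAS5 signal on each of the 8 arrays (log axis) for the 20 matrix genes called between the lines, coloured by line and plasmid, with circles for array 1 and squares for array 2. The dashed line is the common floor of 17.6, and heights are comparable within a gene only. The blue SKBR3-labelled points lie above the red ZR75-1 points for 15 genes and the order is the opposite for 5, with overlap in MMP9 and MMP15.

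Among the collagens, 5 were lower and 2 higher in ZR75-1 of 25 probe sets, 13 of them tested. Of these 13, 10 had signal above the floor in 1 line only, every called collagen among them. Separation of the lines was thus partly built into their passing the filter. COL13A1, a transmembrane collagen of cell adhesion sites, gave 362.3 and 418.5 with the plasmid and 310.5 and 284.1 without it in the SKBR3-labelled cells. On the ZR75-1 arrays it read 1.9 and 5.1 after HSD17B14 and 5.8 and 13.2 in the controls. All 4 ZR75-1 arrays were thus under the floor and all SKBR3-labelled arrays far above it, an at least 19.3-fold lower signal in ZR75-1 (adjusted p = 9.04e-08).

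COL4A1, a chain of the basement membrane's type IV collagen, showed the same order. Its signals were 106.8, 128.9, 70.5 and 115.7 in the SKBR3-labelled cells and 0.6, 6.9, 13.5 and 10.6 in ZR75-1, in each case the HSD17B14 arrays first. It was at least 5.85-fold lower in ZR75-1 (adjusted p = 4.64e-05). COL5A1, a chain of the type V collagen that starts fibril assembly, read 74.5, 83.8, 62.1 and 67.6 against 5.5, 5.5, 3.3 and 2.9, at least 4.07-fold lower (adjusted p = 5.14e-06). COL6A3, from the beaded filaments around cells, read 47.7, 63.8, 55.5 and 50.6 against 2.3, 1.3, 1.3 and 16.9, at least 3.07-fold lower (adjusted p = 5.42e-04). For each of these 3 genes every SKBR3-labelled array exceeded every ZR75-1 array. As they could not have passed the filter without the SKBR3-labelled arrays, this order is a description and adds no support to the calls. COL7A1, which anchors the epithelial basement membrane, lay closer to the floor at 25.6, 38.2, 35 and 30.4 against 16.1, 3.4, 16.3 and 11.7, at least 1.81-fold lower (adjusted p = 0.0205). Its call was lost without SKBR3-labelled HSD17B14 array 2 (adjusted p = 0.0905), without SKBR3-labelled control 1 (adjusted p = 0.0549) and with the actin ratio (log2 -1.05, adjusted p = 0.421).

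COL1A1 and COL4A5 had the opposite order. COL1A1, the main chain of type I collagen, read 21.8, 40.3, 50.4 and 33.6 in ZR75-1 and 3.4, 5.5, 14.4 and 7.7 in the SKBR3-labelled cells, at least 1.98-fold higher in ZR75-1 (adjusted p = 0.0016). COL1A2, which encodes the partner chain of the same fibre, read 11.7 to 13.6 in ZR75-1 and 3.2 to 28.5 in the SKBR3-labelled cells and was not called (log2 0.35 ± 0.72 SE, adjusted p = 0.72). COL4A5, another type IV chain, read 24, 14.9, 19.9 and 27.8 against 1.4, 5.2, 7.7 and 8.5, the opposite order to COL4A1, at least 1.2-fold higher in ZR75-1 (adjusted p = 0.0139). It was not called without ZR75-1 HSD17B14 array 1 (adjusted p = 0.0584), without SKBR3-labelled HSD17B14 array 1 (adjusted p = 0.0523) or with values raised to the floor (log2 0.32, adjusted p = 0.126). COL9A2, a cartilage collagen chain, was at 23.9 to 38.5 in ZR75-1 and 12.7 to 20 in the SKBR3-labelled cells, without overlap. It narrowly missed the threshold (log2 0.89, adjusted p = 0.0528), which it passed with median centring (adjusted p = 0.0406) and on the log2(value + 32) scale (adjusted p = 0.0291). It also passed with values raised to the floor (adjusted p = 0.00208) and with the prior not dependent on the mean (adjusted p = 0.0147). The other tested collagens, COL16A1, COL18A1, COL4A3 and COL5A3, had overlapping arrays and were not called, with log2 differences from -0.52 to 1.21. Of the 12 collagen probe sets not tested, COL10A1 reached 40.1 on ZR75-1 control 1 and COL2A1 and COL3A1 passed the floor on SKBR3-labelled control 1 only, and the other 9 were under it throughout. These 9 belong to COL4A4, COL5A2, COL8A1 with both its probe sets, COL9A1, COL9A3, COL11A1, COL15A1 and COL19A1.

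Laminin chains were unequal between the lines. LAMB3, the beta chain of laminin-332 in epithelial anchoring complexes, read 333.7 and 346.8 with the plasmid and 351.8 and 287.9 without it in the SKBR3-labelled cells. ZR75-1 read 25.2 and 30.5 after HSD17B14, and 39.4 and 41.2 in the controls, a log2 difference of -3.30 ± 0.15 SE (adjusted p = 9.76e-09). All 8 values lay above the floor and the lines were far apart. LAMC1, the gamma chain shared by many laminins, was 168.1, 154.8, 102.8 and 129.1 against 59.5, 59.6, 39.2 and 49.2, 2.67-fold lower in ZR75-1 (adjusted p = 2.27e-05). LAMB1 and LAMB2, the beta chains found with LAMC1 in other laminins, overlapped between the lines at 17.1 to 50.1 and 23 to 41.3 and were not called (adjusted p = 0.134 and 0.779). LAMA2, LAMA4, LAMC3 and HSPG2, the perlecan gene, passed the filter with scattered low signals up to 42.7 and were not called. HSPG2 was called at log2 -2.74 (adjusted p = 0.0107) once SKBR3-labelled control 2, at 1.8, was left out. NID1, the nidogen that links laminin to type IV collagen, reached the floor on 1 array, ZR75-1 control 2, at 22.4.

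Of the enzymes that modify collagen, LOX, PLOD2 and P4HA1 were lower in ZR75-1 and PLOD1 and PLOD3 were not called between the lines. LOX, the oxidase that starts cross-linking, read 112.6, 131.5, 128.2 and 131.4 in the SKBR3-labelled cells and 2.6, 5.1, 1 and 2.5 in ZR75-1, at least 7.14-fold lower (adjusted p = 1.2e-06). PLOD2, the lysyl hydroxylase that acts on the ends of collagen chains, read 151.7, 141.2, 114 and 122.3 against 25.3, 37.1, 25.5 and 22.9, 4.83-fold lower in ZR75-1 (adjusted p = 2.19e-06). In both genes the spread within a line was small beside the gap between the lines, though LOX passed the filter through the SKBR3-labelled arrays only. P4HA1, a catalytic subunit of prolyl 4-hydroxylase, differed less, at 103.4, 98.8, 74.1 and 80 against 67.2, 63.7, 55.4 and 52.2. The fold was 1.49 (adjusted p = 0.0122), and the call was lost without SKBR3-labelled HSD17B14 array 1 (adjusted p = 0.0636) and with the actin ratio (adjusted p = 0.139). PLOD1, the first lysyl hydroxylase, overlapped at 43.3 to 69 and 55.8 to 85.1. PLOD3 had a log2 difference of 0.34 ± 0.14 SE (adjusted p = 0.0637), which passed after quantile normalization (0.46, adjusted p = 0.0162). It also passed with median centring (0.40, adjusted p = 0.0323) and on the log2(value + 32) scale (0.31, adjusted p = 0.0365). Without ZR75-1 HSD17B14 array 1 the difference was 0.45. The average over both plasmids joined gaps of opposite order. With vector, the mean log2 signal of PLOD3 was 8.256 in ZR75-1 and 7.284 in the SKBR3-labelled cells, without overlap. With HSD17B14 it was 6.859 and 7.146. The lines were not tested within 1 plasmid.

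**Figure D2:**
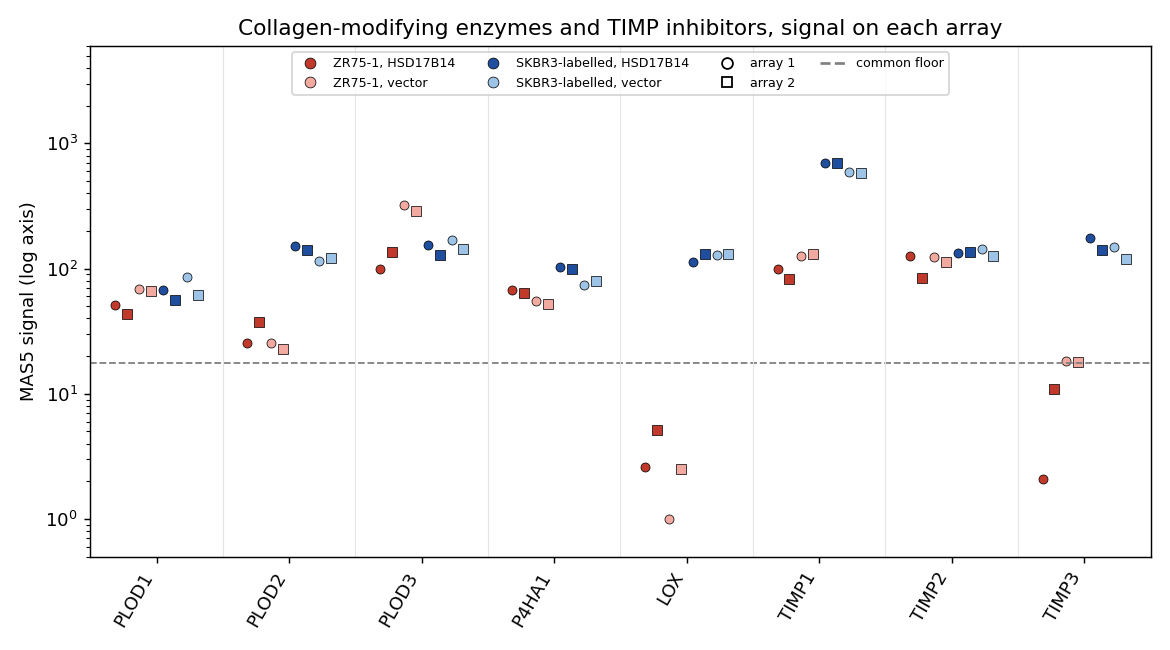
MAS5 signal on each array (log axis) for the 5 collagen-modifying enzymes and the 3 tested TIMP genes, with the groups as coloured points, circles for array 1 and squares for array 2, and the floor of 17.6 dashed. LOX, PLOD2, P4HA1, TIMP1 and TIMP3 separate by line, while PLOD3 is lower on both ZR75-1 HSD17B14 arrays (99.5 and 135.5) than on both ZR75-1 vector arrays (323.6 and 289).

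The matricellular genes went both ways. THBS1, a thrombospondin that binds cells and matrix, read 96, 111.3, 68.5 and 75.7 in the SKBR3-labelled cells and 20.2, 6.9, 7.1 and 16.7 in ZR75-1. The log2 difference was -2.93 ± 0.40 SE (adjusted p = 8.17e-05), or -2.24 with values raised to the floor, since 3 of the 4 ZR75-1 arrays lay under it. THBS3 was higher in ZR75-1, at 32.7, 22.1, 22.6 and 54.1 against 15.2, 4.5, 1.7 and 14.6, at least 1.74-fold (adjusted p = 0.0225). That call was lost without ZR75-1 HSD17B14 array 1 (adjusted p = 0.0741), ZR75-1 control 2 (adjusted p = 0.0868), SKBR3-labelled HSD17B14 array 2 (adjusted p = 0.0826) or SKBR3-labelled control 1 (adjusted p = 0.0564). It was also lost with values raised to the floor (0.80, adjusted p = 0.0753), with the prior not dependent on the mean (adjusted p = 0.072) and with the actin ratio (0.39, adjusted p = 0.819). THBS4 read 21.6, 25.1, 21.9 and 16.6 against 11.7, 15.9, 12 and 15.5, without overlap but not called (adjusted p = 0.24). It passed with values raised to the floor (0.28, adjusted p = 0.046) and with the prior not dependent on the mean (0.63, adjusted p = 0.0425). Its fitted plasmid change in ZR75-1 was 0.29 (adjusted p = 0.85). Of the rest, THBS2 and SPARC were under the floor on all arrays.

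Of the 23 metalloproteinase-named probe sets, 14 were tested, 2 were lower and 2 higher in ZR75-1. Over all tested probe sets 26.1% were lower and 23% higher, so these counts show no excess among the metalloproteinases. MMP1, the interstitial collagenase, read 96.8 and 113.4 with the plasmid and 31.1 and 54.8 without it in the SKBR3-labelled cells, and 8.1, 1.3, 0.9 and 8 in ZR75-1. It was at least 3.74-fold lower in ZR75-1 (adjusted p = 4.23e-04). MMP1 passed the filter through the SKBR3-labelled arrays only, so separation of the lines was partly built into its passing. MMP14, a membrane-bound metalloproteinase that activates MMP2, read 91.2, 87, 104.8 and 81.6 against 27.1, 29.4, 47.4 and 23.4, 2.96-fold lower in ZR75-1 (adjusted p = 2.89e-04). MMP2, the gelatinase it activates, overlapped at 12.4 to 33.5 in ZR75-1 and 15.5 to 27 in the SKBR3-labelled cells and was not called (adjusted p = 0.803). MMP9, the other gelatinase, was higher in ZR75-1 at 35.8, 51.6, 45.2 and 83.4 against 16.7, 13.8, 39.3 and 25.7. Its 2.34-fold difference (adjusted p = 0.00705) came with overlap, as SKBR3-labelled control 1 exceeded ZR75-1 HSD17B14 array 1, and was not called with the actin ratio (log2 1.21, adjusted p = 0.134).

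MMP15, a second membrane-bound family member, read 3.8, 19.3, 35 and 22.1 in ZR75-1 and 1.9, 1.6, 9.8 and 1.3 in the SKBR3-labelled cells. It passed the filter through the ZR75-1 arrays only. The fitted log2 difference of 2.63 ± 0.93 SE passed (adjusted p = 0.0343) but allows no fold against the floor. It did not pass when any 1 of 6 arrays was left out, namely ZR75-1 HSD17B14 array 2, either ZR75-1 control, either SKBR3-labelled HSD17B14 array or SKBR3-labelled control 2. Without those arrays the log2 difference ran from 1.90 to 2.79 and the adjusted p from 0.0691 to 0.151. It also failed with values raised to the floor (0.36, adjusted p = 0.0986), the spike-in level as a block (2.56, adjusted p = 0.0598) and the actin ratio (3.19, adjusted p = 0.166). MMP11, MMP12, MMP17, MMP26 and both MMP25 probe sets gave low and overlapping signals up to 38.7 with no call, and MMP8 and 1 MMP25 probe set passed the filter while under the floor throughout. MMP17 was called with values raised to the floor (log2 0.54, adjusted p = 0.01965) and with a replicate block (log2 1.64, adjusted p = 0.0449). Its log2 difference was 2.37 without SKBR3-labelled control 1. MMP24OS showed no call at either probe set, at 20.7 to 49.6 and 81.8 to 129.5 over all arrays. Of the 9 not tested, MMP19 passed the floor on 1 array. The other 8, which include the stromelysins MMP3 and MMP10, matrilysin MMP7 and collagenase-3 MMP13 beside MMP16, MMP20, MMP27 and MMP28, did so on 0 arrays.

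TIMP1 and TIMP3, inhibitors of the metalloproteinases, were lower in ZR75-1 and TIMP2 was not called. TIMP1 read 696.4 and 699.5 with the plasmid and 585.6 and 577.6 without it in the SKBR3-labelled cells, against 98.7 and 83 with it and 126.3 and 131.8 without it in ZR75-1. The difference was 5.9-fold (log2 -2.56 ± 0.11 SE, adjusted p = 5.05e-09), with arrays of a group close together. TIMP3, which is held in the matrix, read 176.4, 140.5, 148.4 and 118.9 against 2.1, 10.9, 18.3 and 18, a log2 difference of -3.96 ± 0.43 SE (adjusted p = 1.36e-05), or -3.02 with values raised to the floor. TIMP2 lay at 84.6 to 125.9 in ZR75-1 and 125.3 to 142.5 in the SKBR3-labelled cells, overlapping by a narrow margin (log2 -0.28, adjusted p = 0.166). It was called at -0.42 (adjusted p = 0.0456) without ZR75-1 HSD17B14 array 1. TIMP4 was under the floor on all arrays.

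**Figure D3:**
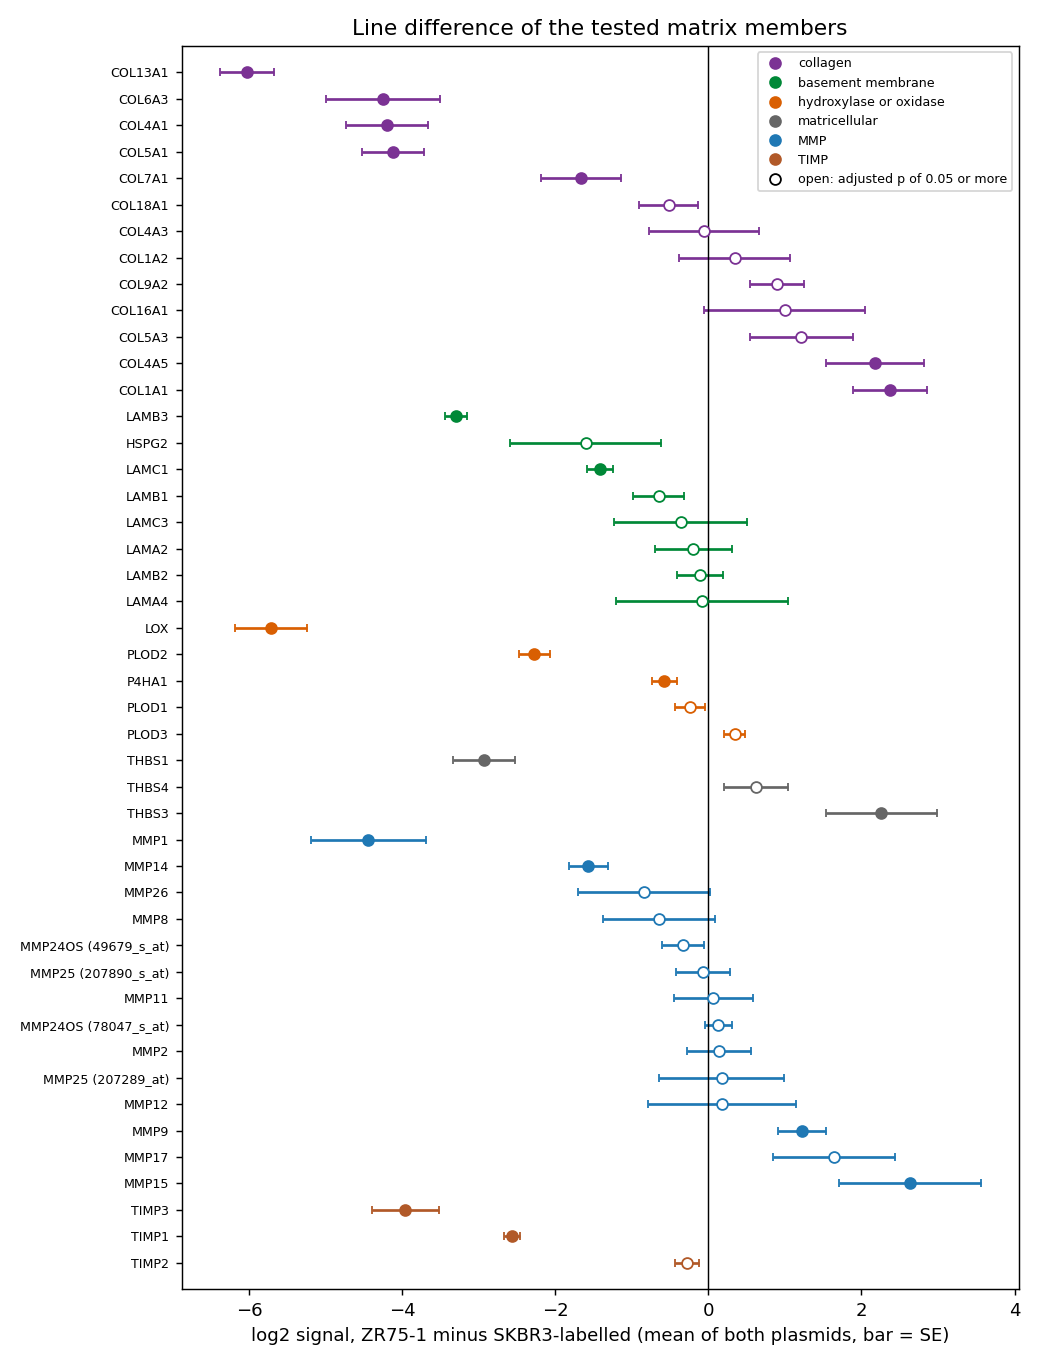
Fitted log2 difference, ZR75-1 minus SKBR3-labelled averaged over both plasmids, for the 46 tested probe sets, grouped and coloured by class, with bars for limma's standard error. Filled points passed an adjusted p under 0.05 (15 to the left, 5 to the right), and sizes of genes under the floor in 1 line are fitted values that depend on low signals.

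The promoter letters of the genes that carry these results are shown so that they can be set beside the signals. They are the 250 bases before the transcription start in RefSeq's GRCh38.p14 annotation, which held 48 of the 68 genes. The genes were chosen after their values were seen, as the 3 with the largest moderated t between the lines and PLOD3, the 1 member called with the plasmid. The regions are chrX:47582186-47582435 on the plus strand, chr1:209652426-209652675 on the minus strand, chr10:69801656-69801905 on the plus strand and chr7:101217582-101217831 on the minus strand. Capitals mark exact matches on either strand. The GC box was searched as GGGCGG. The TATA box was searched as TATAAA. The binding site of AP-1 was searched as TGANTCA.
TIMP1: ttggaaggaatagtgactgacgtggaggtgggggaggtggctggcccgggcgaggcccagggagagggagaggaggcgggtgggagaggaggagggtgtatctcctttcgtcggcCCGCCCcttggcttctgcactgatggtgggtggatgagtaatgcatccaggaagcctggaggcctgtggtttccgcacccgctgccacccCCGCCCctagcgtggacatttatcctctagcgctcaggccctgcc
LAMB3: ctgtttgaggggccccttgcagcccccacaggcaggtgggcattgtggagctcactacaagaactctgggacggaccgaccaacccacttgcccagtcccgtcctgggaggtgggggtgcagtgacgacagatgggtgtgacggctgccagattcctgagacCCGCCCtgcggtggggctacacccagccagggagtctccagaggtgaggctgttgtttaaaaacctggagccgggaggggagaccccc
COL13A1: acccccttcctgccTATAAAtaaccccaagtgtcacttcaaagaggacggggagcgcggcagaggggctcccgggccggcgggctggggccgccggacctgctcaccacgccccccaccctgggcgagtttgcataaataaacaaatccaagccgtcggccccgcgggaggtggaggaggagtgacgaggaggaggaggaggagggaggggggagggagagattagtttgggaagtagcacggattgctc
PLOD3: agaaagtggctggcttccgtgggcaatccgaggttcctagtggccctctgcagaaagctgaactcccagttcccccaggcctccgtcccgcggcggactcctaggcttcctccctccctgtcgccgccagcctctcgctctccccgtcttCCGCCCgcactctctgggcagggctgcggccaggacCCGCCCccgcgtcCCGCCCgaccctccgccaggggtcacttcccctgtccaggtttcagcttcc
The GC box was found 2 times in TIMP1, 1 time in LAMB3, 3 times in PLOD3 and 0 times in COL13A1, which held 1 TATA box match. The AP-1 letters were in 0 of the 4. No matches of different motifs overlap here. Over 27305 promoters of this length, 42.3% held the GC box, 11.1% the TATA box and 6.6% the AP-1 letters, against 62.5%, 18.8% and 6.25% of the 48 matrix promoters. A match is a description of letters and not a bound site.

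The study's own question was what the HSD17B14 plasmid changed in each line, and among the matrix genes 1 call answered it. PLOD3, a lysyl hydroxylase that also helps to add sugars to collagen, fell in ZR75-1. Both plasmid arrays, at 99.5 and 135.5, lay below both vector arrays, at 323.6 and 289, a 2.63-fold fall (log2 -1.40 ± 0.20 SE, adjusted p = 0.0109). Beside this 1 of 46 members (2.17%), 1.52% of all tested probe sets were called in ZR75-1 (0.736% higher and 0.784% lower), so the share is near the background. In the SKBR3-labelled cells PLOD3 read 155.7 and 128.8 against 168.5 and 144.1, with overlap (log2 -0.14, adjusted p = 0.956). The difference of the effects between the lines was -1.26 ± 0.28 SE and did not pass (adjusted p = 0.088), although it did on the log2(value + 32) scale (-1.07, adjusted p = 0.0364). Averaged over both lines PLOD3 fell by 0.77 ± 0.14 SE on the log2 scale (adjusted p = 0.0176), the 1 member called where 1.5% of all tested probe sets were (1.22% higher and 0.288% lower).

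The PLOD3 fall in ZR75-1 was not called without ZR75-1 HSD17B14 array 1 (log2 -1.17, adjusted p = 0.0705) or with a prior not dependent on the mean (adjusted p = 0.131). RNA quality moved with the plasmid in ZR75-1, as the actin 3'/5' ratios were 2.83 and 2.66 with HSD17B14 but 2.03 and 2.02 in the controls. With that ratio as a covariate the change was -1.24 (adjusted p = 0.44). The averaged fall was not called without ZR75-1 HSD17B14 array 1 (adjusted p = 0.08), ZR75-1 control 1 (adjusted p = 0.067), SKBR3-labelled HSD17B14 array 2 (adjusted p = 0.115) or SKBR3-labelled control 1 (adjusted p = 0.0793). PLOD1 had log2 changes of -0.52 in ZR75-1 and -0.24 in the SKBR3-labelled cells, and PLOD2 of 0.34 and 0.31, with 0 calls.

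Other members with unadjusted limma p under 0.05 in ZR75-1 were lower with the plasmid and did not pass. TIMP1 had a log2 change of -0.51 ± 0.15 SE (adjusted p = 0.1), with its plasmid arrays at 98.7 and 83 below its controls at 126.3 and 131.8. LAMB3 had -0.54 ± 0.21 SE (adjusted p = 0.196). At a higher unadjusted p, MMP24OS had -0.81 ± 0.39 SE at the probe set reading 20.7 to 49.6 (adjusted p = 0.302). TIMP3 was under the floor on both plasmid arrays and just above it on both controls (adjusted p = 0.124). COL13A1 and COL4A1 were under it on all 4 ZR75-1 arrays, so their change has no size (adjusted p = 0.148 and 0.158). TIMP3 and COL4A1 were called without ZR75-1 HSD17B14 array 2 (adjusted p = 0.0166 and 0.0238), where they rest on array 1 at 2.1 and 0.6. Of the 46 tested members 18 had a fitted change above 0, and the median was -0.35 where that of all tested probe sets was -0.04. The members' median was -0.18 after quantile normalization and -0.24 with median centring, beside 0.04 and 0.07 over all tested probe sets. With values raised to the floor it was 0 beside -0.01, as members under the floor in both arms became exact zeros. In the main setting the members' median was -0.46 over the 23 with a mean above the floor and -0.32 over the 23 others. Over all tested probe sets at those levels it was -0.02 and -0.18.

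In the SKBR3-labelled cells limma called 0 of the 46 members, where 0.992% of all tested probe sets were called (0.944% higher and 0.048% lower), and 1 member had an unadjusted p under 0.05. That was MMP9, at 16.7 and 13.8 with the plasmid against 39.3 and 25.7 (log2 -1.07 ± 0.45 SE, adjusted p = 0.524). MMP1 went from 31.1 and 54.8 to 96.8 and 113.4, without overlap and without a call (1.34 ± 1.07 SE, adjusted p = 0.866). On the log2(value + 32) scale MMP1 was the 1 member called (0.89, adjusted p = 0.0484). TIMP1 was at 696.4 and 699.5 against 585.6 and 577.6, a change of 0.26 ± 0.15 SE (adjusted p = 0.698). LAMC1 was at 168.1 and 154.8 against 102.8 and 129.1 (0.49, adjusted p = 0.588), and P4HA1 at 103.4 and 98.8 against 74.1 and 80 (0.39, adjusted p = 0.718). COL1A1, under the floor in these cells (-1.28 ± 0.69 SE), and THBS1 (0.52 ± 0.57 SE) were not called. The median over the members was 0.00, and that over all tested probe sets -0.01.

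The effects in both lines were set against each other by the interaction term, which shares no control between the lines. It called 0 of 46 members at the adjusted threshold, where 0.624% of all tested probe sets were called (0.064% higher and 0.56% lower), and 5 at an unadjusted p under 0.05. Besides PLOD3 these were TIMP1 (-0.77 ± 0.21 SE, adjusted p = 0.148), COL13A1, TIMP3 and COL4A1 (adjusted p = 0.305, 0.322 and 0.347), each lower in ZR75-1 minus SKBR3-labelled. The ZR75-1 signals of COL13A1 and COL4A1 lay under the floor on all 4 arrays, and those of TIMP3 on both plasmid arrays, so no size is given for these. MMP12 and THBS3, the members with the lowest p of their classes, were not called (adjusted p = 0.479 and 0.804). LAMC1 had nearly equal fitted changes of 0.44 and 0.49 in the 2 lines, averaging 0.46 ± 0.17 SE (adjusted p = 0.231).

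**Figure D4:**
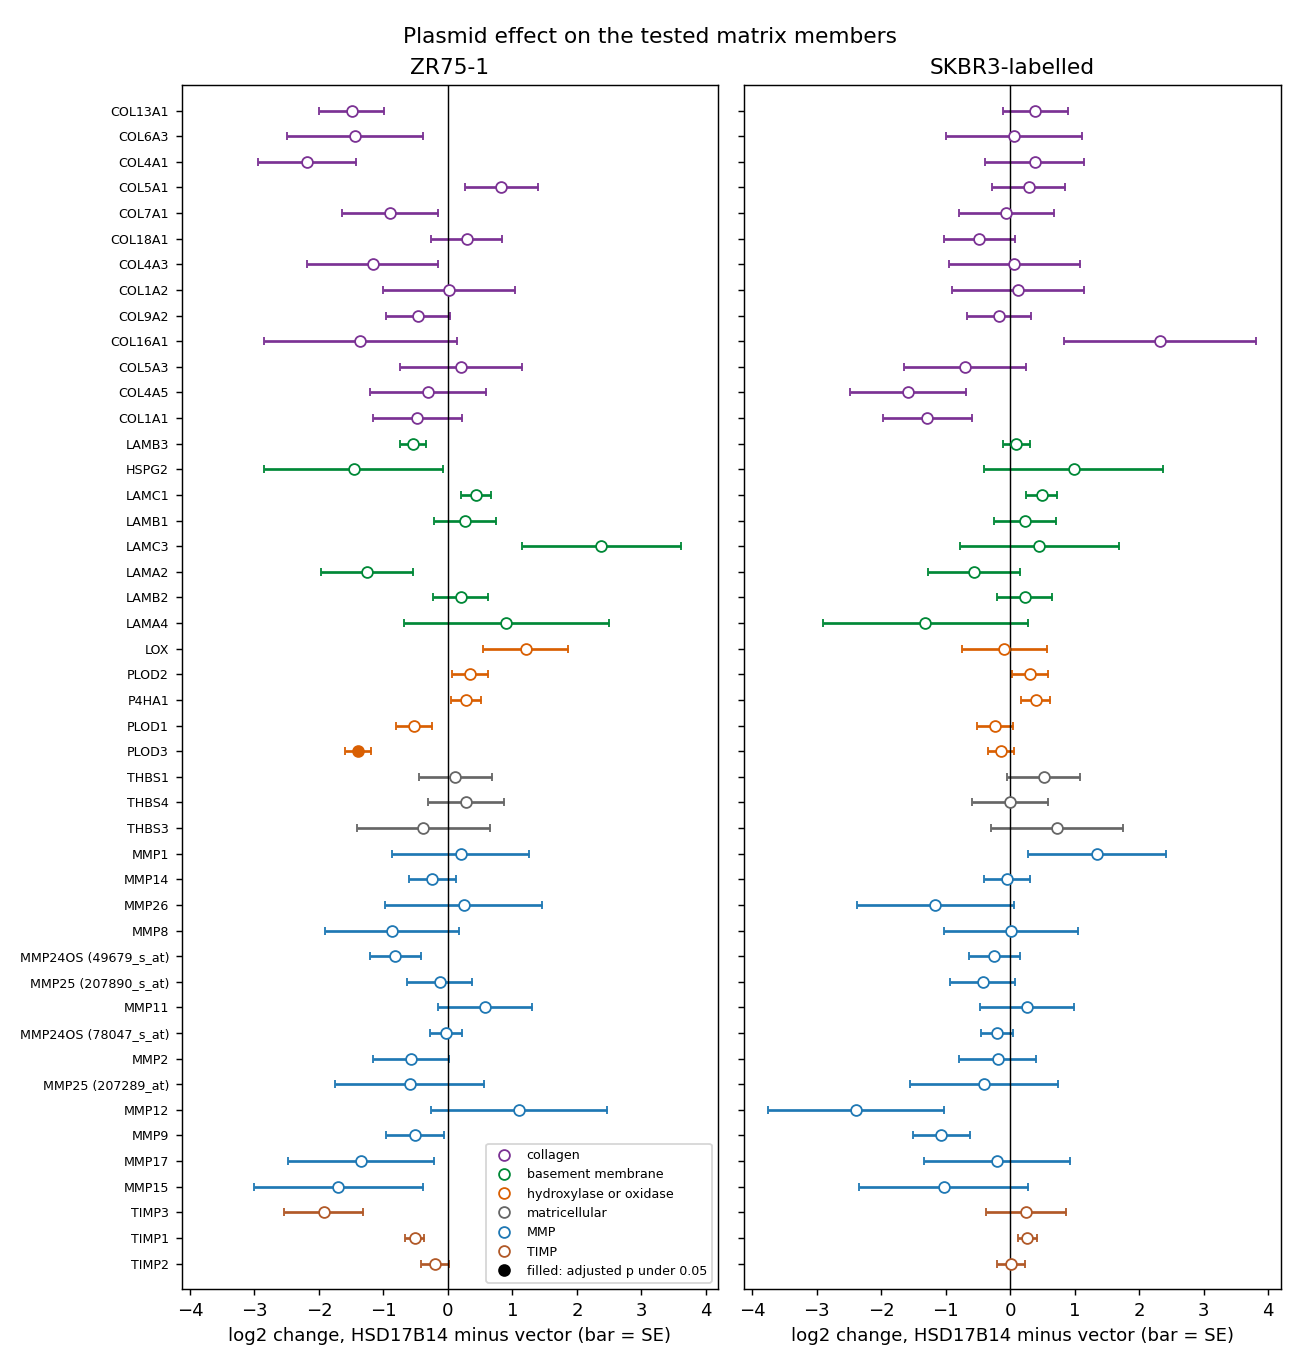
Fitted log2 change with HSD17B14 against vector for the 46 tested probe sets in ZR75-1 (left) and the SKBR3-labelled cells (right), in the same order and on the same axis, with bars for limma's standard error. PLOD3 in ZR75-1 (-1.40) is the only filled point, which marks an adjusted p under 0.05. Points of genes under the floor on all arrays of a line, such as COL13A1 and COL4A1 in ZR75-1, are fitted values that show no size.

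Further matrix genes outside the members were listed with them, 79 genes on 80 probe sets of which 62 were tested. Between the lines 25 were lower in ZR75-1 (40.3%, against 26.1% of all tested probe sets) and 18 higher (29%, against 23%). Together 69.4% were called, against 49.2% of all tested probe sets. The list was chosen with earlier results of these data known, so this excess cannot be read as a result about matrix genes. Collagen processing genes had 5 lower and 1 higher of 12 tested, proteases and inhibitors 9 and 7 of 21, structural proteins 6 and 7 of 20, and matricellular proteins and receptors 5 and 3 of 9. CD44, a hyaluronan receptor, read 503.8 to 618.6 at 1 of its 2 probe sets in the SKBR3-labelled cells and 13.2 to 26.2 in ZR75-1 (log2 -4.96 ± 0.19 SE, adjusted p = 3.43e-09). CCN1, a secreted matricellular protein, read 597.7 to 705.1 against 24.9 to 47 (-4.22 ± 0.17 SE, adjusted p = 4.72e-09). ADAM9, a membrane metalloprotease, read 437.3 to 532.5 against 85.5 to 158.5 (-2.14 ± 0.12 SE). SPINT2, an inhibitor of serine proteases, had the opposite order, at 266.2 to 352.4 against 800.2 to 932.2 (1.47 ± 0.10 SE, adjusted p = 2.1e-07). PLAU, the urokinase protease, and LOXL2, a relative of LOX, were picked after their values were seen. PLAU was at least 20.4-fold lower in ZR75-1, at 1.9 to 6.4 against 299 to 442.2, and LOXL2 read 0.7 to 20.9 against 261 to 295.1. With the plasmid, BSG, an inducer of metalloproteinases, fell in ZR75-1 from 422.7 and 339.3 to 231.4 and 160.2 (-0.98 ± 0.21 SE, adjusted p = 0.0498), a call at the edge of the threshold, since the alternatives gave adjusted p from 0.00902 to 0.507. SDC4, a heparan sulfate proteoglycan of the cell surface, rose in the SKBR3-labelled cells from 254.2 and 226 to 439.7 and 435.3 (0.87 ± 0.14 SE, adjusted p = 0.00626). That call was lost without SKBR3-labelled HSD17B14 array 1 (adjusted p = 0.121) or 2 (adjusted p = 0.102), with the prior not dependent on the mean (adjusted p = 0.209) and with the actin ratio (adjusted p = 0.108).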

How the data were processed

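Gene expression was measured on 8 Affymetrix arrays, and the values are the deposited MAS5 intensity signals, scaled by the authors to a trimmed mean of about 100.1, as the values show. MAS5 is named in the submitters' processing notes, and further settings are not given in the sources used here. Of 8793 rows, 47 control probe sets were left out. Gene symbols came from the platform annotation, in which 7840 probe sets had 1 symbol, and 1 probe set with 2 symbols that matched the rule was left out. Signals under 1 were raised to 1 and put on the log2 scale. Probe sets above their array's 40th percentile on at least 2 arrays were tested, 6251 in all, with limma 3.58.1 in R 4.3.3 on the 4 group means with a mean-dependent prior. Benjamini-Hochberg adjustment ran over all tested probe sets, with calls at 0.05. The number of arrays limits the precision. The fit was tested on simulated data. Named genes were the called members and, per class and comparison, the member with the lowest p. Alternatives covered normalization, offset, floor, filter, prior, covariates, a replicate block and each array left out. The members and lists were chosen with earlier results of these data known. RefSeq promoters matched by symbol.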

Additional observations from a re-analysis of the deposited data

Results flagged for a closer look

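SDC4, a cell-surface heparan sulfate proteoglycan from the further matrix genes, was called for a plasmid effect that differed between the lines, a call that most alternatives lost. Its log2 change was 0.87 in the SKBR3-labelled cells, and the effect in ZR75-1 minus that in the SKBR3-labelled cells was -0.99 ± 0.19 SE by limma's interaction term (adjusted p = 0.0468). Both ZR75-1 HSD17B14 arrays (424.9 and 414.2) lay below their controls (443.5 and 469.3), and both SKBR3-labelled HSD17B14 arrays (439.7 and 435.3) above theirs (254.2 and 226). Over the alternatives the adjusted p of the difference ran from 0.0364 to 0.996.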

How the results depend on the processing

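Between the lines 20 matrix probe sets were called, 15 to 22 under the alternatives and 17 to 20 with 1 array left out. In ZR75-1 the 1 plasmid call became 0 with a prior not dependent on the mean and 0 with the actin ratio, and 0 to 3 with 1 array left out. In the SKBR3-labelled cells and for the difference of effects, 0 calls became 1 each on the log2(value + 32) scale and stayed 0 with any array left out. The averaged effect's 1 call became 0 with values raised to the floor, 0 with the prior not dependent on the mean, 0 with the actin ratio, and 0 to 2 with 1 array left out. Same-numbered arrays did not deviate together (correlations -0.044 to 0.059), and with a replicate block 21 were called between the lines, 1 in ZR75-1, 0 in the SKBR3-labelled cells, 1 averaged and 0 for the difference. Of 22 single-gene results, 14 kept their call under every alternative run, 8 lost it under at least 1 and 0 reversed. The cause of these losses was not tested. Signals near the floor limit the sizes of COL7A1, COL4A5, THBS3 and MMP15.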
